A study of Mus musculus with 16 samples.

Results

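LKR10 cells carrying a control hairpin were compared between growth in methylcellulose (3D) and growth as a monolayer (2D), over all genes measured. LKR10 is an established line from a lung adenocarcinoma of a mouse. The comparison rested on 8 of the 16 libraries of the series, 4 labelled 3D shGFP and 4 labelled 2D shGFP, and on 12320 tested genes of 12321. All of these cells were transduced with a lentiviral pLKO vector whose hairpin targets GFP, held for 48 h in 4 µg/ml puromycin to kill untransduced cells, and harvested after 96 h more. The 2D cells grew in DMEM with serum, and the 3D cells in complete DMEM made semi-solid with 0.5% methylcellulose, in which cells have no rigid surface to attach to. How much of the time after transduction was spent in methylcellulose is not stated. The other 8 libraries, labelled shAnkrd35 and grown in the same 2 ways, entered the estimate of the spread and served for a second growth effect from separate libraries. All libraries came from 1 cell line, nothing in the labels says that the replicates were separate cultures, and the p-values measure only how these libraries vary, a variation that may be technical.

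Cells of epithelial tumours normally receive signals through attachment and spreading. Integrins and focal adhesions feed the kinase cascade that ends in ERK, and tension in the actin cytoskeleton holds the coactivators YAP and TAZ, which act through TEAD factors, in the nucleus. Amino acid supply is sensed separately: when amino acids or charged tRNAs are short, translation of the transcription factor ATF4 increases and it switches on genes for amino acid synthesis and import. Growth in methylcellulose is widely used as a test of growth without anchorage.

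The 8 libraries held 19.7 to 28.72 M reads in genes. Libraries within a group resembled each other closely, where the SD of log2 values had a median over genes of 0.10 in 2D shGFP and 0.07 in 3D shGFP. Ankrd35, the target of the other hairpin, had 2 to 17 reads in these 8 libraries and was not tested. Levels also followed the base composition of the genes: relative to the mean library, the log2 level changed by -0.106 to 0.315 per 10% of GC content in the 2D shGFP libraries and by -0.319 to -0.25 in the 3D shGFP libraries. A gene's growth effect had a Spearman correlation of -0.35 with its GC content across 12217 genes, which are not independent replicates. For this reason counts of higher and lower calls in gene groups are also given after a trend on GC content and gene length was removed from each library. Summed levels of 6 keratin and junction markers of adenocarcinoma epithelium (Epcam, Cdh1, Krt7, Krt8, Krt18, Krt19) were 5262 to 5761 CPM in 2D and 5995 to 6176 CPM in 3D. The lung markers Nkx2-1 and Sftpc were not among the genes with values. All 4 lymphocyte and all 4 erythroid markers were likewise without values. The 3 fibroblast markers measured of 7 summed to 20.7 to 23.8 CPM in 2D and 23.2 to 26 CPM in 3D, and Vwf, the single endothelial marker measured of 5, to 0.995 to 1.9 CPM and 1.01 to 1.52 CPM.

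Growth in methylcellulose went with a change in most genes measured. At an adjusted p under 0.05 (limma, Benjamini-Hochberg over all 12320 genes), 4331 genes, 35.2% of those tested, were higher in 3D and 3954, 32.1%, were lower. These 2 shares are the background for every count of list members below. With a difference of at least 2-fold required as well, 931 genes (7.56%) were higher and 472 (3.83%) lower. The 4 libraries of one group did not overlap the 4 of the other in 4102 genes that were higher in 3D (33.3%) and 3895 that were lower (31.6%). The split of calls depended on the scaling: 52.3% of them were rises on the values as deposited and 65.6% were rises when recovered reads were scaled to library totals (5655 higher and 2961 lower). That scaling moved the median difference of all genes from 0.028 to 0.147 on the log2 scale. Changes of at least 8-fold numbered 45 upward and 36 downward.

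Genes that ATF4 controls were lower in methylcellulose, and 5 of the 14 largest falls named were members of that list. Of the 31 members listed, all were measured, 3 rose and 27 fell, and their median log2 difference was -1.82, against 0.028 over all genes tested. With the GC and length trend removed the counts were the same, 3 and 27, and the median was -1.62. Atf4 itself was measured at 543, 541, 559 and 545 CPM in monolayer and 140, 138, 134 and 134 CPM in methylcellulose, with no overlap of the groups, a 4-fold fall (log2 difference -2.0, SE 0.07, limma adjusted p = 1.9e-13).

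Trib3 (chr2:152337422-152344032, mm10), a pseudokinase that feeds back on ATF4, stood at 297, 268, 295 and 275 CPM in monolayer and 7.65, 8.07, 7.29 and 7.66 CPM in methylcellulose. The groups were far apart (log2 difference -5.19, SE 0.067, limma adjusted p = 1.03e-18). Chac1 (chr2:119351229-119354381), which degrades glutathione, stood at 98.7, 88.1, 90.8 and 78.2 CPM in monolayer and 1.91, 2.53, 2.32 and 2.32 CPM in methylcellulose. Its fall was 37.8-fold (log2 difference -5.24, SE 0.13, limma adjusted p = 2.94e-15). The fall of Aldh1l2 (chr10:83487450-83534140), a mitochondrial enzyme of one-carbon metabolism, was 38.8-fold, from 268, 285, 290 and 286 CPM in monolayer to 6.8, 6.74, 7.45 and 7.83 CPM in methylcellulose. Mthfd2, the neighbouring step of the mitochondrial folate pathway, was at 218, 200, 210 and 205 CPM in monolayer and 26.1, 26, 26.6 and 26 CPM in methylcellulose, a 7.95-fold fall. Every library in methylcellulose lay below every monolayer library for these 4 genes.

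The enzymes that make nonessential amino acids took part. Pycr1, the last step of proline synthesis, stood at 67.5, 59.6, 67.6 and 56 CPM in monolayer and 3.99, 4.52, 4.55 and 4.97 CPM in methylcellulose, a 13.6-fold fall. Cth, which makes cysteine from cystathionine, fell 9.79-fold (log2 difference -3.29, SE 0.076, limma adjusted p = 8.31e-16). Asparagine synthetase, Asns, differed by -3.23 on the log2 scale, and the serine pathway genes Phgdh, Psat1, Psph and Shmt2 by -1.48, -0.89, -2.63 and -1.54, all called lower. Gpt2, a mitochondrial alanine transaminase outside the list, was at 163, 142, 166 and 149 CPM in monolayer and 13.6, 15.3, 13.7 and 14.3 CPM in methylcellulose. It was among the 14 largest falls (log2 difference -3.44, SE 0.072, limma adjusted p = 2.86e-16).

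Transporters and regulators of the same programme moved with the enzymes. Slc7a5, the large neutral amino acid transporter, had the highest level of the list, 1034, 889, 1041 and 951 CPM in monolayer and 103, 108, 114 and 107 CPM in methylcellulose, and fell 9.04-fold. Atf5, a transcription factor induced by ATF4, was at 746, 671, 674 and 632 CPM in monolayer and 70.9, 77.1, 75.4 and 73.3 CPM in methylcellulose (log2 difference -3.19, SE 0.062, limma adjusted p = 9.55e-17). Ddit3, which encodes CHOP, differed by -2.68, and Sesn2, an inhibitor of mTORC1, by -2.28, both called lower. The members that rose were Slc7a3, a cationic amino acid transporter, Cbs, the enzyme before Cth, and Stc2, with log2 differences of 2.01, 0.93 and 0.54. Slc7a3 was a low gene, at 0.483, 1.62, 0.714 and 0.861 CPM in monolayer and 3.66, 4.75, 3.67 and 2.82 CPM in methylcellulose. Cebpb was not called, with a difference of -0.13.

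With a C/EBP partner ATF4 binds an element found in promoters of known targets. Windows are shown for the 5 members with the largest falls among those with a match at least 8 bases before the start. They were chosen because this list holds many of the largest falls. The motif searched was TGATGNAA, on both strands, in RefSeq windows of GRCm38.p6 from 250 bases before to 50 bases after each annotated start. A window was given for 25 of the 31 members, and 8 of them (32.0%) held a match, against 2.6% of the 9460 tested genes with a window and 4.0% of all 32851 windows. All 8 members with a match fell, but so did 27 of all 31 members, so their direction says nothing of the match. The other 17 members with a window had none. All 4 motifs searched were chosen after the list results had been seen. The stretches below are written 5′ to 3′ on the gene's strand, with the match in capitals. TTGCATCA is the same element read on the other strand. A match describes letters in the window and does not show binding.
Chac1, chr2:119351023-119351082, plus strand: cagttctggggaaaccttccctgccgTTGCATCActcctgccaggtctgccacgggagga
Pycr1, chr11:120643818-120643877, minus strand: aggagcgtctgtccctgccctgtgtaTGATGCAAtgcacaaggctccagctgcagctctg
Asns, chr6:7693210-7693258, minus strand: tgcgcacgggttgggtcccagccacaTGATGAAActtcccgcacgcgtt
Vldlr, chr19:27216794-27216853, plus strand: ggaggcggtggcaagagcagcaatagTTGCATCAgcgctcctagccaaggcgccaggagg
Nupr1, chr7:126625547-126625606, minus strand: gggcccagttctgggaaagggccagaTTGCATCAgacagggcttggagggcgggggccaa
These 5 genes differed by -5.24 (Chac1), -3.77 (Pycr1), -3.23 (Asns), -2.78 (Vldlr) and -1.29 (Nupr1) on the log2 scale.

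**Figure D1:**
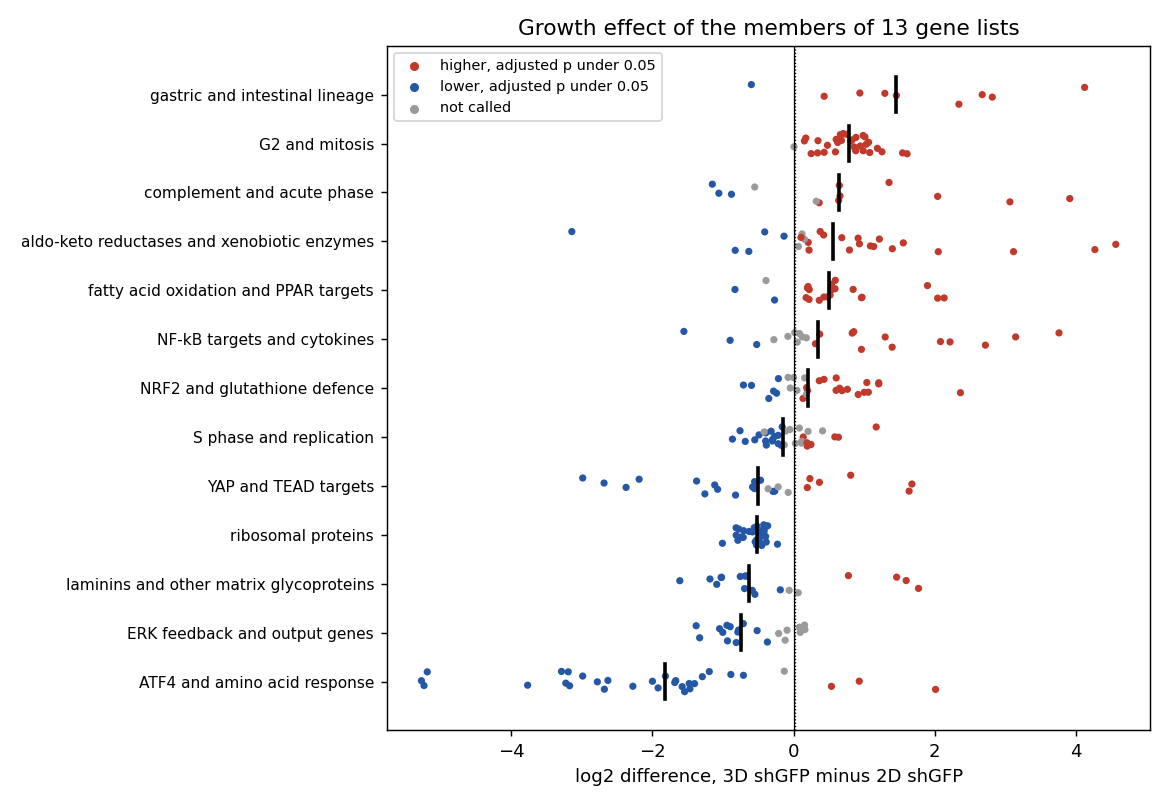
Log2 difference of 3D shGFP minus 2D shGFP (horizontal axis) for every measured member of 13 gene lists (rows); red and blue points passed the test upward or downward, grey points did not, black bars are list medians and the dotted line is the median of all genes. ATF4 genes reach below -5, ribosomal protein genes lie together left of 0, and mitotic genes lie right of 0.

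Genes of the protein synthesis machinery were lower as a group. All 32 ribosomal protein genes listed were measured and all 32 fell, with a median of -0.52 and a range of -1.01 to -0.23. Removal of the GC and length trend left 32 falls and a median of -0.45, and quantile normalisation left 25. Rps14 stood at 2285, 2008, 2065 and 1911 CPM in monolayer and 1008, 1018, 1016 and 1059 CPM in methylcellulose (log2 difference -1.01, SE 0.057, limma adjusted p = 1.1e-10). Rpl5 was at 1396, 1343, 1409 and 1404 CPM in monolayer and 752, 812, 779 and 818 CPM in methylcellulose, a 1.76-fold fall. Neither gene had overlapping groups. Rps2, the most abundant listed, fell 1.31-fold, and its call was lost under quantile normalisation (adjusted p = 0.12).

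The 84 ribosomal protein genes of the table together took up 7.75%, 7.2%, 7.24% and 7.24% of reads in the monolayer libraries and 5.6%, 5.84%, 5.54% and 5.65% in methylcellulose. The share was 7.36% ± 0.26 (SD, n = 4) against 5.66% ± 0.13 (SD, n = 4), a difference of -1.7 percentage points (two-sided exact permutation test, p = 0.029, the smallest that 4 against 4 allows). Translation elongation factors had the 2 largest falls in mean CPM among called genes. Eef2, which moves the ribosome along the message, stood at 15837, 13690, 16725 and 15150 CPM in monolayer and 6407, 6680, 6720 and 6683 CPM in methylcellulose, and fell 2.31-fold (log2 difference -1.21, SE 0.084, limma adjusted p = 1.68e-09). Eef1a1, which brings charged tRNAs to the ribosome, was at 18897, 16456, 18741 and 17089 CPM in monolayer and 11283, 11537, 11354 and 11638 CPM in methylcellulose. Its log2 difference was -0.63. Eef1a1 had the most reads of all genes in all 16 libraries, and quantile normalisation gives such a gene the same value in each, so that scaling cannot measure it. Ribosome biogenesis and MYC output genes numbered 4 higher and 20 lower of 29 measured, with a median of -0.26. With the GC and length trend removed they were 3 and 20 (median -0.18), and on library totals 6 and 16 (median -0.15).

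Transcripts that report ERK activity were lower in methylcellulose. All 20 listed genes were measured: 13 fell, 0 rose in limma (0 at an unadjusted p under 0.05 and 2 by voom on library totals), and the median was -0.75 (-0.63 with the GC and length trend removed, when 1 rose and 14 fell). Ccnd1, the cyclin that ERK signalling raises in G1, was at 589, 534, 610 and 592 CPM in monolayer and 218, 213, 234 and 227 CPM in methylcellulose. It fell 2.6-fold (log2 difference -1.38, SE 0.052, limma adjusted p = 4.44e-13). Etv5, an ETS factor controlled by ERK, stood at 121, 108, 116 and 110 CPM in monolayer and 46.1, 43.3, 44 and 46.9 CPM in methylcellulose, and Dusp4, a phosphatase that switches ERK off, at 465, 417, 457 and 437 CPM in monolayer and 233, 220, 244 and 230 CPM in methylcellulose. Their log2 differences were -1.33 and -0.94, with no overlap of groups. Epha2, a receptor tyrosine kinase, fell 2-fold (log2 difference -1.0, SE 0.047, limma adjusted p = 9.89e-12). The feedback inhibitors Dusp6, Spry2 and Spry4 differed by -0.90, -0.81 and -0.79, all called lower, while Fosl1, Ier3 and Etv1 were not called (-0.12, 0.10 and 0.16).

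YAP and TEAD targets fell unevenly. Of 27 listed genes 24 were measured, and 6 (25%) rose and 15 (62.5%) fell, against 35.2% and 32.1% of all genes tested. The median was -0.51, or -0.28 with the GC and length trend removed (7 and 12 called higher and lower). Ctgf, a matricellular protein and a standard readout of YAP, stood at 28.2, 30.9, 25.9 and 21.5 CPM in monolayer and 2.77, 3.2, 3.67 and 3.43 CPM in methylcellulose, a 7.94-fold fall (log2 difference -2.99, SE 0.13, limma adjusted p = 2.34e-12). Ankrd1 was at 42.6, 45.8, 43.1 and 41.1 CPM in monolayer and 6.84, 6.74, 6.64 and 6.29 CPM in methylcellulose, and Amotl2, an angiomotin that restrains YAP, at 186, 182, 177 and 173 CPM in monolayer and 41, 38.7, 41.5 and 36.1 CPM in methylcellulose. The groups were apart for all 3, by 6.44-fold for Ankrd1 and 4.56-fold for Amotl2. Ajuba, a LIM protein of the same pathway, fell 2.17-fold. Members that rose were led by Igfbp3, a binding protein for insulin-like growth factors, at 16.3, 16.9, 14.9 and 14.6 CPM in monolayer and 51.7, 51.4, 47.3 and 51.1 CPM in methylcellulose, and by F3, the tissue factor of blood clotting, at 13.2, 13.6, 13 and 12.2 CPM in monolayer and 43.6, 39.9, 39.1 and 40.1 CPM in methylcellulose. Axl, the most abundant member, was not called (1418, 1287, 1416 and 1345 CPM in monolayer and 1283, 1260, 1318 and 1324 CPM in methylcellulose), except with array weights (-0.08, adjusted p = 0.0468) or without the second 2D shGFP library (-0.1, adjusted p = 0.03). Yap1 and Wwtr1, which encode the coactivators, differed by -0.29 and -0.16. Yap1 lost its call with the GC and length trend removed (-0.1, adjusted p = 0.074), and Wwtr1 lost it under scaling to library totals (-0.04, adjusted p = 0.503), under quantile normalisation (-0.07, adjusted p = 0.179) and without the fourth 2D shGFP library (-0.13, adjusted p = 0.0501).

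The letters GGAATG, the core that TEAD factors recognise, were found on either strand in the windows of 8 of 18 members with a window (44.4%), against 14.3% of tested genes. Of those 8 members, 7 fell and 0 rose, where 15 fell and 6 rose of all 24 measured. The members were chosen as targets of these factors, so the share with a match is not a separate result. Members without a window are among the 24, so the directions do not set a match against its absence. Whether the match bears on the fall was not tested. The windows of the members with the largest falls that held a match are shown, with the match in capitals.
Ankrd1, chr19:36119934-36119993, minus strand: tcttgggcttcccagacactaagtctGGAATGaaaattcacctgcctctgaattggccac
Cyr61, chr3:145650055-145650114, minus strand: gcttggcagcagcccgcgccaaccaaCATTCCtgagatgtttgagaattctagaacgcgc
Ankrd1 and Cyr61 differed by -2.69 and -2.37 on the log2 scale.

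More matrix glycoprotein and cytoskeletal genes fell than rose. Among laminins and other matrix glycoproteins 4 rose and 12 fell of 18 measured from 26 listed. That is 22.2% and 66.7%, against 35.2% and 32.1% of all genes tested. The median was -0.63 (-0.38 with the GC and length trend removed, 6 and 11 called). Fbln2, a basement membrane fibulin, was at 3651, 3460, 3752 and 3688 CPM in monolayer and 1197, 1165, 1222 and 1173 CPM in methylcellulose, a 3.06-fold fall (log2 difference -1.61, SE 0.054, limma adjusted p = 1.17e-13). Thbs1, thrombospondin, fell 2.27-fold, Lamb1, a laminin chain, 2.03-fold and Agrn, agrin, 1.62-fold. Fn1, fibronectin, was at 4204, 4160, 4540 and 4478 CPM in monolayer and 3055, 2857, 3115 and 2861 CPM in methylcellulose, a 1.46-fold fall. The largest rise of the list was Spp1, osteopontin, at 602, 840, 658 and 776 CPM in monolayer and 2300, 2371, 2421 and 2661 CPM in methylcellulose (log2 difference 1.77, SE 0.088, limma adjusted p = 2.64e-11). Vcan, the proteoglycan versican, rose 2.75-fold.

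Abundant genes outside this list fell in CPM by amounts that put them among the 6 largest. Ahnak, a scaffold protein, was at 4743, 5309, 5870 and 5438 CPM in monolayer and 2667, 2306, 2598 and 2532 CPM in methylcellulose. Myh9, the heavy chain of nonmuscle myosin, was at 6127, 5871, 7051 and 6215 CPM in monolayer and 3686, 3463, 3731 and 3587 CPM in methylcellulose and Bgn, biglycan, at 4628, 4245, 4459 and 4201 CPM in monolayer and 2600, 2696, 2531 and 2565 CPM in methylcellulose. All 3 had separate groups. Focal adhesion components numbered 3 higher and 15 lower of 22 measured (median -0.24) and SRF and MRTF targets with actin genes 2 higher and 14 lower of 23 measured (median -0.20). With the GC and length trend removed these were 4 and 13 (median -0.16) and 5 and 10 (median -0.10), and on library totals 4 and 11 and 5 and 10, with medians of -0.12 and -0.08. Srf was at 93.4, 86.1, 88.7 and 79.2 CPM in monolayer and 80.1, 81.8, 79.2 and 73 CPM in methylcellulose. Its difference of -0.14 (limma adjusted p = 0.0427) overlapped between groups and became 0.16 with the GC and length trend removed (adjusted p = 0.0018). The Srf call was also lost on library totals (-0.03, adjusted p = 0.709), under quantile normalisation (-0.14, adjusted p = 0.08), with array weights (-0.1, adjusted p = 0.0651) and with no variance trend or robust fitting (-0.14, adjusted p = 0.0565). It was lost too without the first, the second or the third 2D shGFP library and without the first, the third or the fourth 3D shGFP library.

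Mitotic genes were higher in methylcellulose. All 32 genes of the G2 and mitosis list were measured, 31 rose and 0 fell in limma (0 lower at an unadjusted p under 0.05 and 0 by voom), and the median was 0.78. With the GC and length trend removed 29 rose and 0 fell (median 0.74), and on library totals the median was 0.90. Plk1, the kinase that drives mitotic entry, stood at 28.1, 25, 25.2 and 26.8 CPM in monolayer and 53.6, 52.9, 54.4 and 53.9 CPM in methylcellulose, a 2.04-fold rise (log2 difference 1.03, SE 0.053, limma adjusted p = 2.97e-11). Cdc20, an activator of the anaphase-promoting complex, was at 59.7, 56, 51.6 and 56.4 CPM in monolayer and 118, 118, 119 and 118 CPM in methylcellulose, and Ccnb1, cyclin B1, at 46.3, 47.4, 41.8 and 45.7 CPM in monolayer and 87.1, 83.5, 89.5 and 89.2 CPM in methylcellulose. Neither had overlapping groups, and the rises were 2.11-fold and 1.93-fold. Ccna2, cyclin A2, rose 1.98-fold. Top2a, topoisomerase II and the most abundant member, was at 290, 359, 341 and 363 CPM in monolayer and 394, 377, 411 and 423 CPM in methylcellulose (log2 difference 0.25, limma adjusted p = 0.0273), which became -0.02 (adjusted p = 0.697) with the GC and length trend removed. The Top2a call was also lost without the first 2D shGFP library (0.18, adjusted p = 0.0978) and without the third or the fourth 3D shGFP library (0.24 and 0.22).

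The cell cycle homology region is a short element through which DREAM and MMB complexes time expression in G2. Its letters TTTGAA occurred on either strand in the windows of 19 of 27 members with a window (70.4%). The shares were 14.2% of tested genes and 17.9% of all windows. All 19 rose, but so did 31 of all 32 members, so their direction says nothing of the match. Members with large rises and a match on the upstream side of the start are shown, with matches in capitals.
Cdc20, chr4:118437344-118437387, minus strand: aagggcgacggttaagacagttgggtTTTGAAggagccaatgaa
Mki67, chr7:135716444-135716503, minus strand: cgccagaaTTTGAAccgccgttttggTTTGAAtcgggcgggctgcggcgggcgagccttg
Kif11, chr19:37376337-37376381, plus strand: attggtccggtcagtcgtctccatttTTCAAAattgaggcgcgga
Cdc20, Mki67 and Kif11 differed by 1.08, 1.01 and 0.88 on the log2 scale. Foxm1, a mitotic transcription factor, fell 1.29-fold (log2 difference -0.36, SE 0.049, limma adjusted p = 5.78e-06), and Mybl2, a subunit of MMB, was not called (-0.0039).

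S phase genes were divided. All 34 were measured, 7 (20.6%) rose and 16 (47.1%) fell, against 35.2% and 32.1% of all genes tested, with a median of -0.15. With the GC and length trend removed 9 rose and 15 fell (median -0.08), and on library totals 13 rose and 12 fell. E2f1, the transcription factor of the G1 to S transition, was at 65.6, 57.2, 64.2 and 62.1 CPM in monolayer and 37.1, 34.6, 34 and 30.9 CPM in methylcellulose (log2 difference -0.87, SE 0.06, limma adjusted p = 1.48e-09). Cdt1 and Mcm2, which license replication origins, fell 1.69-fold and 1.46-fold, Mcm7 1.23-fold and Pold1, a replicative polymerase, 1.61-fold. Rrm2 and Tk1, which supply deoxynucleotides, rose 1.55-fold and 1.5-fold, from 48.2, 44.4, 49.3 and 44 CPM in monolayer to 71.4, 73.9, 70.5 and 72.9 CPM in methylcellulose for Rrm2. All 6 replication-dependent histones measured of 25 listed rose, with a median of 1.0 (0.92 with the GC and length trend removed, 6 and 0 called). RNA was selected by its poly(A) tail, which most histone messages lack. Among p53 targets, 3 higher and 16 lower of 24 measured were called, and the median was -0.39 (-0.43 with the GC and length trend removed, 3 and 16 called). Trp53 itself was not called (-0.14, limma adjusted p = 0.0808), except with array weights (-0.12, adjusted p = 0.0233) or in a fit of the 8 shGFP libraries alone (-0.14, adjusted p = 0.019). In bulk RNA, fewer cells in a phase and less RNA per cell cannot be told apart.

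**Figure D2:**
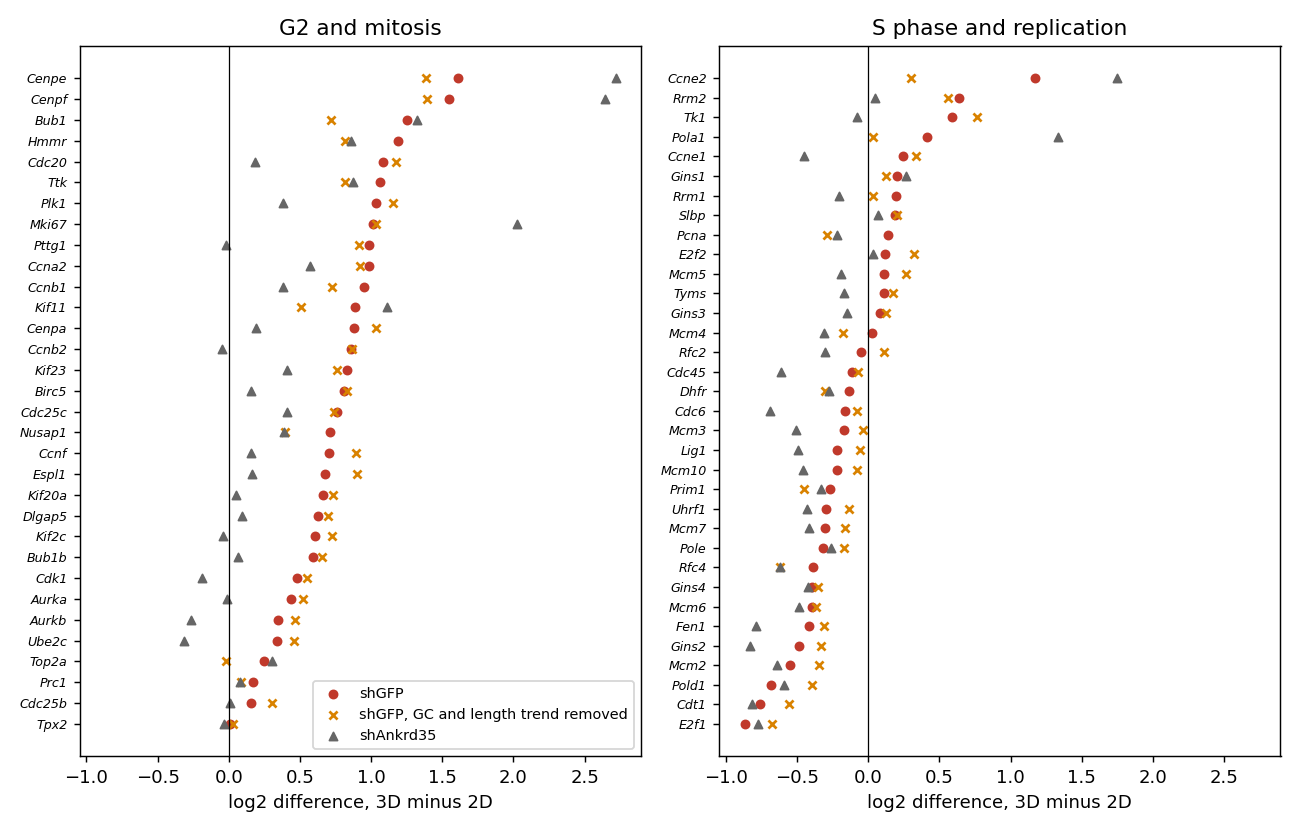
Log2 difference of 3D minus 2D (horizontal axis) for each measured gene of the G2 and mitosis list (left) and the S phase list (right), with shGFP (circles), with shGFP after removal of the GC and length trend (crosses) and with shAnkrd35 (triangles). The circles lie right of 0 for mitotic genes and on both sides of 0 for S phase genes, and many mitotic triangles lie nearer 0 than their circles.

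Genes of fatty acid oxidation and targets of PPAR factors were higher. Of 22 measured from 26 listed, 19 rose and 2 fell, with a median of 0.50 (0.43 with the GC and length trend removed, when 18 and 1 were called higher and lower). Plin4, a lipid droplet coat protein, was at 9.22, 9.06, 9.99 and 9.68 CPM in monolayer and 42.4, 41.1, 41.8 and 42.5 CPM in methylcellulose, a 4.39-fold rise (log2 difference 2.14, SE 0.074, limma adjusted p = 1.71e-13). Cd36, a fatty acid receptor and transporter, stood at 9.74, 12.2, 10.3 and 10.2 CPM in monolayer and 42, 42.9, 45.8 and 45 CPM in methylcellulose, and rose 4.12-fold. Pparg, a nuclear receptor that controls lipid storage, was at 31.4, 31.6, 30.9 and 28.7 CPM in monolayer and 61.2, 59.1, 58.3 and 62 CPM in methylcellulose, a 1.96-fold rise. Acadm, the medium-chain acyl-CoA dehydrogenase, rose 1.8-fold, and Cpt1a, the rate-limiting step of entry into mitochondria, 1.17-fold. Ppard and Ppargc1b were lower, with differences of -0.27 and -0.83, and Ppard lost its call with the GC and length trend removed (-0.02, adjusted p = 0.743).

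More antioxidant and detoxifying genes rose than fell. In the NRF2 and glutathione list 17 rose and 6 fell of 29 measured (58.6% and 20.7%, against 35.2% and 32.1% of all genes tested). The median was 0.20 (0.31 with the GC and length trend removed, when 19 and 5 were called higher and lower). Gclc, the catalytic subunit of glutathione synthesis, was at 278, 291, 260 and 273 CPM in monolayer and 659, 643, 639 and 604 CPM in methylcellulose (log2 difference 1.21, SE 0.044, limma adjusted p = 3.32e-13). Cat, catalase, stood at 79, 85.2, 81.4 and 86.5 CPM in monolayer and 166, 166, 165 and 168 CPM in methylcellulose, and Gsr, which regenerates reduced glutathione, rose 2.09-fold. Gsta4, a glutathione transferase, rose 2.31-fold. Hmox1, heme oxygenase, and Gpx4, which repairs lipid peroxides, fell by 0.60 and 0.35 on the log2 scale. Txnrd1 and Slc7a11 were also called lower, with differences of -0.21 and -0.71. Nqo1, Srxn1 and Osgin1 were not called (0.16, 0.0 and -0.08), so the rise did not extend to all members of the list. Sqstm1, the most abundant member, was at 1212, 1122, 1199 and 1110 CPM in monolayer and 975, 980, 980 and 991 CPM in methylcellulose, a fall on the deposited scale (-0.24) that was 0.02 under quantile normalisation. Nfe2l2, which encodes NRF2, rose 1.29-fold, while Keap1, its inhibitor, was not called (0.049) except with the GC and length trend removed (0.31, adjusted p = 6.96e-05) or on library totals (0.17, adjusted p = 0.0187). The letters TGACNNNGC of the antioxidant response element were in the windows of 9 of 25 members with a window (36%), against 17% of tested genes. Of those 9, 7 rose and 1 fell, where 17 rose and 6 fell of all 29 measured. Members without a window are among the 29, so whether the match bears on the rise was not tested.

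Aldo-keto reductases and xenobiotic enzymes numbered 18 higher and 5 lower of 26 measured, with a median of 0.56 (0.62 with the GC and length trend removed, 18 and 4 called). Akr1c18, which reduces progesterone, stood at 0.845, 0.89, 1.48 and 0.963 CPM in monolayer and 19.1, 20.8, 23.2 and 22.5 CPM in methylcellulose, a 19.3-fold rise. Akr1c19 was at 0.483, 1.26, 0.571 and 0.76 CPM in monolayer and 20.5, 21.4, 20.8 and 14.8 CPM in methylcellulose, a 23.7-fold rise. Akr1c genes lie in a cluster of near-identical copies, so that the counting could split their reads, and the sizes of these rises are uncertain. Ces1d, a carboxylesterase, was at 107, 107, 92.1 and 102 CPM in monolayer and 421, 435, 410 and 427 CPM in methylcellulose (log2 difference 2.05, SE 0.089, limma adjusted p = 5.48e-12). Aldh3a1 and Aldh1a1, aldehyde dehydrogenases, rose 2.94-fold and 1.89-fold. Akr1b7 and Ces2g went the other way, by -3.14 and -0.83.

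Most of the gastric and intestinal genes measured rose. Only 9 of 26 listed were measured, 8 rose and 1 fell, and the median was 1.46 (1.54 with the GC and length trend removed, when 8 and 0 were called higher and lower). A member nearly silent in monolayer could have values only through the methylcellulose libraries. The 8 of 9 may therefore overstate the share of the list that rose. Muc5ac, the secreted gastric and airway mucin, was at 0.765, 0.733, 0.523 and 1.22 CPM in monolayer and 15.4, 14.4, 16.2 and 14.3 CPM in methylcellulose, a 17.5-fold rise (log2 difference 4.13, SE 0.16, limma adjusted p = 5.55e-13). Hnf4a, a transcription factor of gut and liver, stood at 2.17, 1.99, 1.38 and 1.87 CPM in monolayer and 12.2, 11, 13.4 and 12.2 CPM in methylcellulose, and Lgals4, an intestinal galectin, at 2.62, 2.67, 2.62 and 3.19 CPM in monolayer and 18.4, 20.7, 20.1 and 21 CPM in methylcellulose. They rose 6.39-fold and 7.05-fold. Cdh17, an intestinal cadherin, rose 5.08-fold. Gata4, which gave the 1 fall (-0.60), lost its call without the second 2D shGFP library (-0.52, adjusted p = 0.0563), without the fourth 3D shGFP library (-0.39, adjusted p = 0.0838) and with the GC and length trend removed (-0.42, adjusted p = 0.0834).

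Several secreted immune mediators rose. In the list of NF-kB targets and cytokines 12 rose and 3 fell of 22 measured (33 listed), with a median of 0.34. That is 54.5% and 13.6%, against 35.2% and 32.1% of all genes tested. With the GC and length trend removed 15 rose and 6 fell. Ccl2, a chemokine that draws monocytes, was at 3.54, 4.14, 3.28 and 3.09 CPM in monolayer and 50.8, 49.4, 51.2 and 43.3 CPM in methylcellulose, a 13.6-fold rise (log2 difference 3.76, SE 0.11, limma adjusted p = 1.14e-14). Ccl7, its neighbour in the same chemokine cluster, was at 1.01, 1.57, 1.05 and 1.42 CPM in monolayer and 11.2, 12.4, 11.6 and 11.7 CPM in methylcellulose, and Il33, an alarmin cytokine, at 1.45, 1.73, 1.52 and 1.77 CPM in monolayer and 8.39, 7.79, 7.18 and 8.03 CPM in methylcellulose. The groups did not overlap for any of the 3. Cxcl16, which overlaps a gene on the opposite strand, rose 4.24-fold and Vcam1, an adhesion receptor for leukocytes, 2.46-fold. Csf1, the growth factor of macrophages, fell 2.94-fold (240, 239, 239 and 212 CPM in monolayer and 79.8, 82.3, 75.7 and 78.3 CPM in methylcellulose), and Tnfaip2 fell 1.86-fold. Rela, a subunit of NF-kB, differed by -0.24, a call lost with the GC and length trend removed (-0.04, adjusted p = 0.388).

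Complement and acute phase genes numbered 8 higher and 3 lower of 13 measured (61.5% and 23.1%, against 35.2% and 32.1% of all genes tested). The median was 0.64 (0.76 with the GC and length trend removed, 7 and 3 called). C3, the central component of complement, stood at 35.9, 40, 40.4 and 36.2 CPM in monolayer and 581, 570, 591 and 564 CPM in methylcellulose, a 15.1-fold rise (log2 difference 3.92, SE 0.083, limma adjusted p = 3.71e-16). Hp, haptoglobin, was at 1.53, 3.19, 2.47 and 2.63 CPM in monolayer and 19.2, 21.6, 20.4 and 21.3 CPM in methylcellulose, and rose 8.39-fold. Itih2 and Clu, secreted plasma proteins, rose 2.56-fold and 1.58-fold. C1s1 and C1ra, proteases of the classical pathway, fell 2.08-fold and 1.84-fold, from 61.2, 62.9, 60.4 and 61.5 CPM in monolayer to 30.7, 30.3, 28.5 and 28.4 CPM in methylcellulose for C1s1. Of macrophage genes, Mrc1, the mannose receptor, stood at 1.69, 1.78, 1.48 and 1.42 CPM in monolayer and 14, 14.6, 15.7 and 17.5 CPM in methylcellulose, and Cd14, an endotoxin coreceptor, at 38.1, 38.6, 37.4 and 39.1 CPM in monolayer and 110, 116, 118 and 118 CPM in methylcellulose. Both rose, 9.23-fold and 3.01-fold. The 2 macrophage markers measured of 7, Cd68 and Lyz2, summed to 3.29 to 4.39 CPM in 2D and 5.08 to 6.82 CPM in 3D (two-sided exact permutation test, p = 0.029). Ptprc, Adgre1, Csf1r, Itgam and Tyrobp were not among the genes with values, and the part of other cells in these rises was not tested. The same exact permutation test gave p = 0.029 for the summed epithelial markers too, 0.229 for the fibroblast markers and 0.343 for Vwf. Of these, 0.029 is the smallest that 4 against 4 allows, and none was adjusted.

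**Figure D3:**
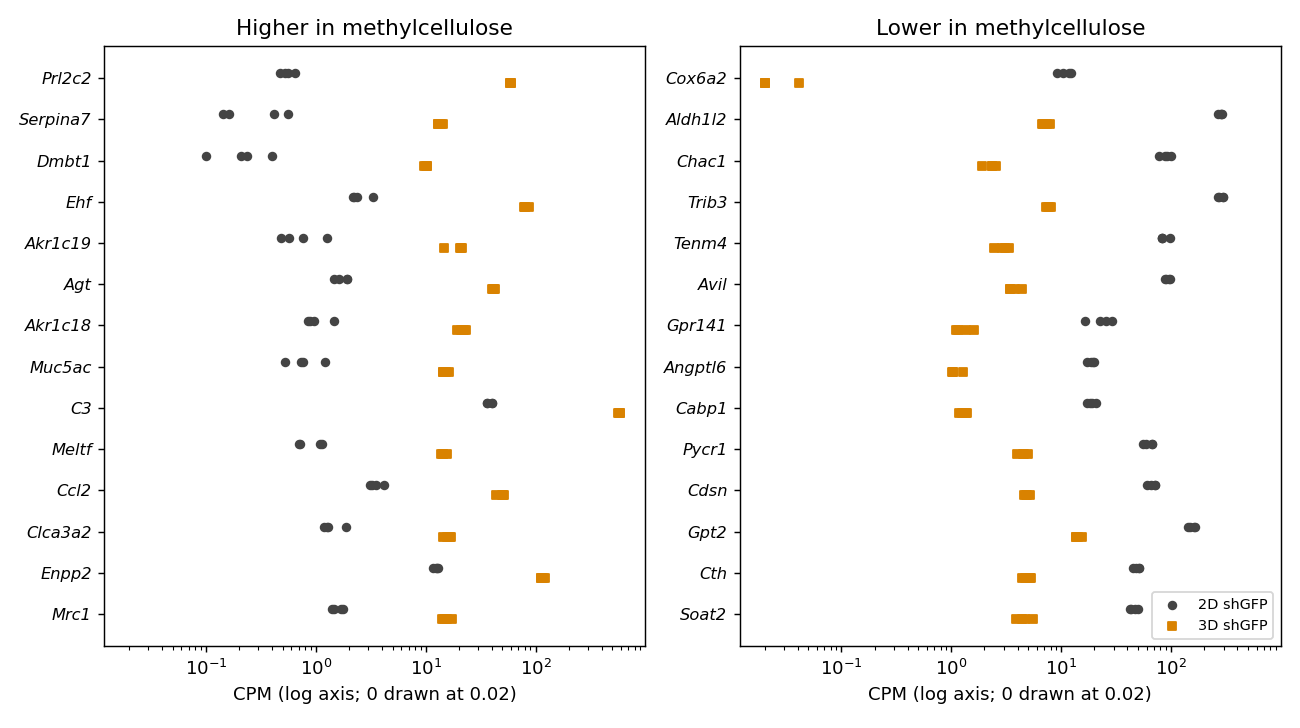
CPM on a log axis for each of the 4 2D shGFP libraries (dark circles) and 4 3D shGFP libraries (orange squares), for the 14 largest rises (left) and 14 largest falls (right) named by rule. Only genes whose groups do not overlap could be named by this rule, and 3 of the 4 methylcellulose libraries have 0 reads of Cox6a2.

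Single genes outside these groups gave the extremes. Prl2c2 (chr13:12996125-13005383), a prolactin-family hormone known as proliferin, stood at 0.644, 0.471, 0.523 and 0.557 CPM in monolayer and 58, 60.4, 58.5 and 60.3 CPM in methylcellulose, a 93.5-fold rise (log2 difference 6.55, SE 0.11, limma adjusted p = 9.71e-18). Prl2c genes have near-identical copies, so that the counting could split their reads, and the size of this rise is uncertain. Ehf (chr2:103263433-103303278), an epithelial ETS factor, was at 2.17, 3.35, 2.38 and 2.23 CPM in monolayer and 78.1, 79.4, 80.3 and 87.9 CPM in methylcellulose and Agt, angiotensinogen, at 1.93, 1.94, 1.62 and 1.47 CPM in monolayer and 40.9, 42.3, 40.6 and 42.9 CPM in methylcellulose. They rose 31.5-fold and 23-fold. Serpina7, which carries thyroid hormone, and Dmbt1, a secreted scavenger protein, were under 1 CPM in every monolayer library and at 13 to 14.5 CPM and 9.72 to 10.4 CPM in methylcellulose. Enpp2, the enzyme autotaxin, was at 12.3, 12.7, 11.6 and 13 CPM in monolayer and 113, 112, 117 and 121 CPM in methylcellulose, a 9.28-fold rise. Meltf and Clca3a2 rose 14.9-fold and 10.9-fold.

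The lowest log2 difference belonged to Cox6a2 (chr7:128205435-128206387), the muscle form of a cytochrome oxidase subunit, at 12.3, 11.8, 10.3 and 9.22 CPM in monolayer and 0.0407, 0, 0 and 0 CPM in methylcellulose. The methylcellulose libraries held 1 read in all and the monolayer libraries 930, which after scaling to the effective library sizes is a ratio of 0.00086 with an exact 95% interval of 2.18e-05 to 0.0048 for counting error only. Tenm4, a teneurin of cell contacts, was at 83, 82.4, 98 and 82.6 CPM in monolayer and 3.09, 2.42, 2.89 and 3.36 CPM in methylcellulose, a 28.7-fold fall (log2 difference -4.84, SE 0.11, limma adjusted p = 9.09e-16). Avil, an actin-binding advillin, fell 24.3-fold, Cdsn, corneodesmosin, 13.5-fold and Soat2, which esterifies cholesterol, 9.77-fold. Gpr141, Angptl6 and Cabp1 fell 16.7-fold, 15.9-fold and 13.7-fold.

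Among rises in absolute level, Far1, which makes fatty alcohols for ether lipids, was at 86.7, 263, 139 and 202 CPM in monolayer and 1079, 1022, 1053 and 1124 CPM in methylcellulose. Its log2 difference was 2.75 (SE 0.26), and Far1os, which overlaps it on the opposite strand, differed by 3.15. Whether counting used strand is not given in the sources used here, so reads of the pair cannot be told apart. The same holds for Cxcl16, whose opposite-strand neighbour Zmynd15 overlaps it and differed by 1.82, and for Dmbt1, whose overlapping neighbour differed by 1.33. Another 15 genes named by rule, among them Aldh1l2, Avil, Atf5, Cdc20, Ccna2, Plin4, Rps14, Rpl5 and Vcan, overlap a measured gene on the opposite strand, with differences of -0.45 to 0.49 for those neighbours. Malat1, a nuclear long RNA, was at 930, 2133, 1349 and 1523 CPM in monolayer and 2520, 2840, 3011 and 1864 CPM in methylcellulose, with groups that overlapped (limma adjusted p = 0.00926). Its call was lost with the GC and length trend removed and a replicate block fitted (0.48, limma adjusted p = 0.0712). Mitochondrially encoded genes made up 1.69%, 2.1%, 1.8% and 1.97% of reads in monolayer and 2.45%, 2.35%, 2.56% and 2.62% in methylcellulose (exact permutation test, p = 0.029). The rises of mt-Cytb and mt-Nd1, of 0.78 and 0.66 on the log2 scale, became 0.0 and -0.27 with the GC and length trend removed, and that of mt-Co1, of 0.20, became -0.49 (adjusted p = 0.000665). The first 2D shGFP library was the lowest of the 8 for Far1, Malat1 and these mitochondrial genes. Without the fourth 3D shGFP library the mt-Co1 difference was 0.15 (adjusted p = 0.0538).

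Counts of the other lists follow, each with the counts after removal of the GC and length trend in brackets. Over all genes tested, 35.2% were called higher and 32.1% lower. Several lists here lie near those shares, among them integrins (40% and 40%) and collagens (38.9% and 38.9%), so their counts set them little apart. Numbers called higher and lower were, for adhesion, matrix and growth signalling, 6 and 6 of 15 for integrins (7 and 3), 7 and 7 of 18 for collagens (8 and 5), 8 and 12 of 27 for matrix proteases and inhibitors (10 and 12), 8 and 8 of 21 for immediate early genes (8 and 8), 5 and 4 of 12 for EGFR family ligands and receptors (5 and 5), 8 and 7 of 20 for TGF-beta targets (8 and 6) and 2 and 5 of 9 for Wnt and Notch targets (3 and 5). For metabolism they were 7 and 15 of 28 for hypoxia and HIF targets (7 and 12), 3 and 11 of 19 for glycolysis (6 and 9), 12 and 4 of 26 for TCA cycle (12 and 4), 11 and 8 of 30 for oxidative phosphorylation, nuclear (14 and 6), 4 and 1 of 10 for mitochondrially encoded (0 and 5), 4 and 11 of 23 for cholesterol synthesis and uptake (5 and 12), 7 and 9 of 21 for fatty acid synthesis (10 and 4) and 9 and 3 of 15 for iron and metal handling (9 and 4). Hif1a was called higher (0.42, adjusted p = 0.014) and was at -0.05 (adjusted p = 0.388) with the trend removed. For cell cycle exit, survival and protein quality control the numbers were 9 and 8 of 25 for CDK inhibitors and quiescence (11 and 8), 9 and 7 of 20 for BCL2 family and apoptosis (10 and 6), 7 and 11 of 23 for ER chaperones and unfolded protein response (7 and 11), 6 and 9 of 20 for heat shock chaperones (6 and 9), 13 and 4 of 26 for proteasome subunits (8 and 8) and 15 and 8 of 32 for lysosome and autophagy (19 and 6). They were 1 and 4 of 15 for interferon response (4 and 5), 4 and 6 of 11 for antigen presentation (3 and 6), 6 and 3 of 12 for lung epithelial lineage (8 and 3), 8 and 3 of 21 for epithelial junctions and keratins (11 and 1), 3 and 6 of 14 for EMT regulators and mesenchymal genes (4 and 6), 10 and 4 of 15 for tumour stem cell and pluripotency markers (10 and 4) and 6 and 4 of 17 for circadian clock (8 and 4) for immune, lineage and clock genes. Longer lists of markers of other cells than those summed above gave 1 and 1 of 4 for fibroblast markers (2 and 1), 3 and 0 of 4 for macrophage and myeloid markers (3 and 0), 1 and 0 of 3 for endothelial markers (1 and 0) and 1 and 0 of 1 for erythroid markers (1 and 0), and no lymphocyte marker of 13 was measured. The balance of higher and lower calls turned or became even with the trend removed for EGFR family ligands and receptors, mitochondrially encoded, fatty acid synthesis and proteasome subunits. On library totals it did so for fatty acid synthesis (10 and 6), ER chaperones and unfolded protein response (9 and 8) and heat shock chaperones (7 and 5). Nuclear oxidative phosphorylation genes were 16 and 1 and hypoxia and HIF targets 8 and 9 on library totals.

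The growth effect was measured again in the libraries labelled shAnkrd35, which share none with those above. The 2 effects had a Pearson r of 0.81 and a Spearman rho of 0.77 across the 12320 genes, as a description. Of the genes higher with shGFP, 3043 were also higher with shAnkrd35, 70.3% of the first list and 71.9% of the second, and 2979 were lower with both, 75.3% and 67.1%. Opposite calls were made for 399 genes. The difference of the 2 effects was called upward, meaning a larger rise or smaller fall with shGFP, in 2297 genes (18.6%) and downward in 2110 (17.1%). With the GC and length trend removed these were 2116 and 2330. The log2 level changed per 10% of GC content by 0.279 to 0.573 in the 2D shAnkrd35 libraries and by -0.292 to -0.136 in the 3D shAnkrd35 libraries. With limma array weights the numbers called upward and downward were 3243 and 3623, and without the first 2D shAnkrd35 library 2897 and 2852.

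Most mitotic genes had a larger rise with shGFP than with shAnkrd35: the median with shAnkrd35 was 0.17, and the difference was called 20 upward and 2 downward among the 32 members (25 and 1 with the GC and length trend removed). Cdc20 rose by 1.08 with shGFP and 0.19 with shAnkrd35 (difference 0.89, limma adjusted p = 3.53e-06). ATF4 genes fell further with shGFP, with 2 upward and 24 downward among 31 (2 and 26 with that trend removed) and a median of -1.06 with shAnkrd35. Trib3 differed by -5.19 with shGFP and -3.58 with shAnkrd35 (difference -1.61, limma adjusted p = 1.19e-08). For ribosomal proteins the difference was called 2 upward and 0 downward, which turned to 0 and 8 with that trend removed. For ERK output genes it was 2 upward and 1 downward (3 and 3 with that trend removed), and for fatty acid oxidation 11 upward and 1 downward among 22 (10 and 1). Of cholesterol synthesis and uptake genes 18 of 23 were called upward (17 with that trend removed), with medians of -0.09 with shGFP and -0.68 with shAnkrd35. NF-kB targets and cytokines had 14 upward and 2 downward of 22 (13 and 1 with that trend removed), with medians of 0.34 with shGFP and 0.07 with shAnkrd35. S phase genes had 15 and 1 of 34 (13 and 3 with that trend removed), with medians of -0.15 and -0.37. Laminins and other matrix glycoproteins had 2 and 10 of 18, also with that trend removed. Their median fall was smaller with shAnkrd35 (-0.13) than with shGFP (-0.63).

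The genes with the smallest p for a larger rise or smaller fall with shGFP were Enpp2 (3.21 with shGFP and 1.77 with shAnkrd35), Padi4 (1.10 with shGFP and -0.66 with shAnkrd35), Cldn2 (0.96 with shGFP and 0.05 with shAnkrd35), Ckb (-0.059 with shGFP and -1.37 with shAnkrd35), Igfbp3 (1.68 with shGFP and 0.17 with shAnkrd35) and Cd14 (1.59 with shGFP and 0.79 with shAnkrd35). Padi4 converts arginine to citrulline in proteins, Cldn2 is a pore-forming claudin and Ckb is the brain creatine kinase. In the other direction they were Tenm4 (-4.84 with shGFP and -1.59 with shAnkrd35), Klf4 (-1.65 with shGFP and -0.26 with shAnkrd35), Myrf (-3.16 with shGFP and -1.95 with shAnkrd35), Trib3 (-5.19 with shGFP and -3.58 with shAnkrd35), Ero1l (-1.98 with shGFP and -0.41 with shAnkrd35) and Mmp28 (-0.49 with shGFP and 0.62 with shAnkrd35). Klf4 is an epithelial transcription factor, Myrf a membrane-bound transcription factor, Ero1l an oxidase of the endoplasmic reticulum and Mmp28 a metalloprotease. Klf4 stood at 148, 148, 145 and 141 CPM in monolayer and 48.7, 44.9, 46.1 and 45.6 CPM in methylcellulose, and Myrf at 165, 151, 163 and 149 CPM in monolayer and 18, 17.4, 18.1 and 16.5 CPM in methylcellulose. Both had separate groups with shGFP.

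**Figure D4:**
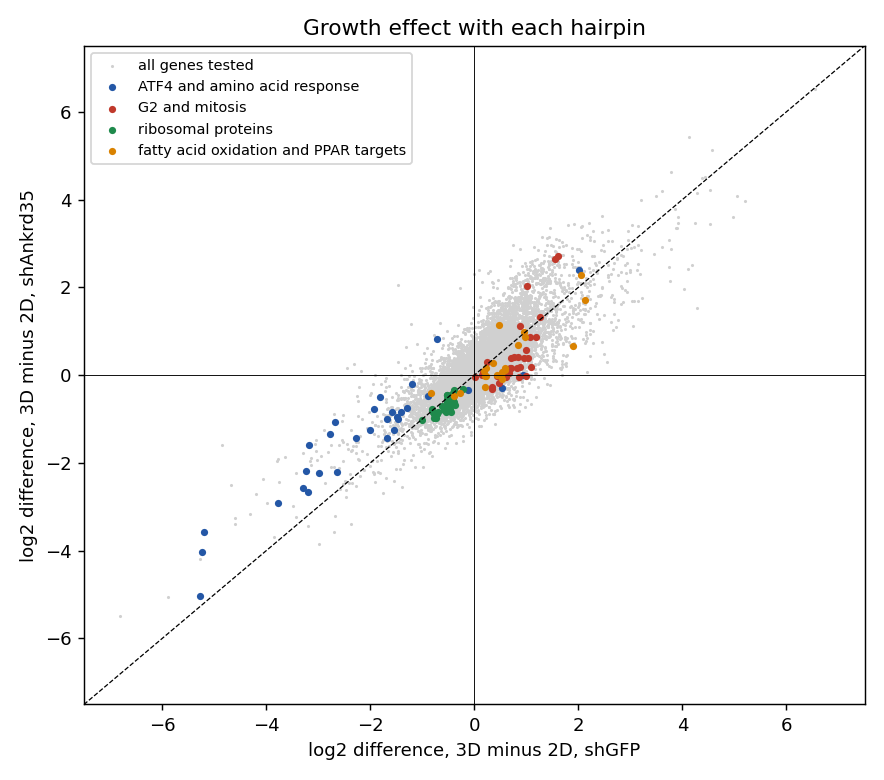
Log2 difference of 3D minus 2D with shGFP (horizontal axis) and with shAnkrd35 (vertical axis) for each of 12320 genes (grey) and for members of 4 lists (colours), with the line of equal effects dashed. Most ATF4 genes lie in the lower left quadrant above the dashed line, and most mitotic genes lie right of it.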

How the data were processed

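RNA of LKR10 cells selected with oligo(dT) beads was sequenced in 16 libraries, 4 per combination of hairpin and growth type, grouped by the sample titles. The genome was mm10 and the tools were STAR 2.5.1b, Trimmomatic 0.38 and edgeR, per the submitters' processing notes. How reads were counted, with which annotation, strand setting and filter, is not given in the sources used here. The authors deposited log2 values: CPM on an effective library size, after a prior of on average 2 reads. This was read from the values, 100% of which gave whole reads within 0.01 reads. CPM in the text is those reads over the effective library size, without the prior. 0 columns belonged to other samples.

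Testing took the 12320 of 12321 genes that reached 1 CPM, prior included, in 4 or more libraries. The file's unit was log2, so limma 3.58.1 (R 4.3.3, statmod 1.5.0; trend and robust) was fitted to a cell-means model over 16 libraries, with Benjamini-Hochberg adjustment over all genes, and the script was tested on simulated data. Calls are at an adjusted p under 0.05. Shares were compared by exact permutation over 70 splits, and intervals on reads cover counting error only. Each library counted as 1 replicate. Libraries of a group differed by a chi-squared per degree of freedom of 2.85 to 32.07, above sampling noise, which does not show that they were separate cultures. Of the symbols, 12218 matched GENCODE M21 (mm10), and 386 had characters restored.

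Genes were named by rule: the 14 largest log2 differences each way among called genes with separate groups and a mean of at least 5 CPM, the 6 largest changes in CPM each way, up to 4 called members of each of 13 described lists in the main direction and 2 in the other with the most abundant member, the 6 smallest p each way for the difference between hairpins, and regulators. A first pass named genes from all 51 lists and more regulators. After its output was seen, the account was narrowed to 13 lists and these regulators, so the genes flagged and the changes of direction given in the closing section cover the 131 genes named after that step only. A few items are not reported here. Other list members are given by their log2 difference and were picked with their values known. The members and all 51 lists were chosen with earlier results of these data known. The 4 promoter motifs searched, all reported, were chosen after the list results had been seen, and printed windows were picked because they hold a match at least 8 bases before the start, a limit moved closer to the start after its first output was seen. Alternatives covered the libraries fitted, a replicate block, filters, the variance model, array weights, scaling, GC content and length, and each library left out.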

Additional observations from a re-analysis of the deposited data

Results flagged for a closer look

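The growth effect differed between the hairpins, by the test of the difference itself in limma at an adjusted p under 0.05, for 82 of the 131 genes named by rule, against 18.6% and 17.1% of all genes tested in the 2 directions. The named genes were partly chosen for this difference or for a large growth effect. The differences given below are those without removal of the GC and length trend.

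A more positive effect with shGFP than with shAnkrd35 was measured, in log2 units, for Akr1c18 2.75, Padi4 1.76, Ccl2 1.63, Igfbp3 1.51, Ccl7 1.46, Enpp2 1.45, Ehf 1.39, Hp 1.37, Ckb 1.32, Il33 1.29, Cxcl16 1.25, Serpina7 1.23, Agt 1.09, Hnf4a 1.01, Itih2 1.0 and Cbs 0.94. Further positive differences were Cldn2 0.91, C1ra 0.90, Cdc20 0.89, Ctgf 0.85, Cd14 0.80, F3 0.75, Cdh17 0.71, Tk1 0.66, Plk1 0.65, Thbs1 0.64, Rrm2 0.59, Ccnb1 0.57, Meltf 0.55, Gsta4 0.55, Ankrd1 0.53 and C1s1 0.50. Smaller positive differences were Spp1 0.48, Vcam1 0.48, Srf 0.48, C3 0.46, Axl 0.42, Ccna2 0.42, Plin4 0.42, Trp53 0.36, Gpx4 0.33, Gsr 0.32, Nfe2l2 0.28, Aldh3a1 0.25, Clu 0.22 and Csf1 0.21. A more negative effect with shGFP was measured for Tenm4 -3.26, Cabp1 -1.86, Gpr141 -1.70, Trib3 -1.61, Ero1l -1.57, Slc7a5 -1.57, Soat2 -1.50, Klf4 -1.39, Avil -1.36, Cdsn -1.33, Cox6a2 -1.31 and Muc5ac -1.29. Further negative differences were Malat1 -1.28, Chac1 -1.21, Gpt2 -1.21, Myrf -1.21, Mmp28 -1.11, Angptl6 -1.07, Pycr1 -0.87, Mthfd2 -0.77, Hmox1 -0.76, Atf4 -0.74, Ahnak -0.72 and Cth -0.71. Smaller negative differences were Fbln2 -0.60, Hif1a -0.57, Atf5 -0.54, Myh9 -0.50, Ces2g -0.49, Tnfaip2 -0.43, mt-Cytb -0.40, Eef2 -0.40, Agrn -0.36, Lamb1 -0.28, Etv5 -0.24 and Wwtr1 -0.21.

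A single library stood apart from the other 3 of its group (Dixon's ratio above its 95% critical value for 4 samples) in 16 of 266 group and measure combinations, and chance flags about 1 in 20 groups. In 2D shGFP libraries these were 1.87 CPM of Clca3a2 in the fourth, 98 CPM of Tenm4 in the third, 236 CPM of Mcm2 in the second, 229 CPM of Cpt1a in the second, 212 CPM of Csf1 in the fourth, 49.1 CPM of C1ra in the first, 3.19 CPM of Lgals4 in the fourth. In 3D shGFP libraries they were 14.8 CPM of Akr1c19 in the fourth, 0.0407 CPM of Cox6a2 in the first, 1.29 CPM of Angptl6 in the second, 6407 CPM of Eef2 in the first, 47.3 CPM of Igfbp3 in the third, 136 CPM of Agrn in the fourth, 2433 CPM of Rps2 in the second, 96.7 CPM of Tnfaip2 in the first. The ribosomal protein share of 7.75% in the first 2D shGFP library was the other.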

How the results depend on the processing

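Counts of genes called for the growth effect stayed within 1.5 times of the reported ones under every alternative run, except that at least 2-fold calls with a mean of at least 5 CPM were 540 higher and 305 lower, where fewer genes were tested. Leaving out each shGFP library gave 4026 to 4391 higher, 3703 to 3895 lower, 791 to 1118 at least 2-fold higher and 458 to 475 at least 2-fold lower. For the difference between hairpins the ranges over all 16 libraries left out were 1823 to 2897 and 1579 to 2852, and array weights gave 3623 lower; the cause was not tested. Same-numbered 2D and 3D shGFP libraries had deviations correlated at 0.01, -0.12, 0.01 and 0.08, and not every library correlated best with its own number. The labels do not say whether the numbers pair libraries, and correlations this small cannot show it either way. With the replicate block 4259 genes were higher and 3897 lower, 931 and 471 at 2-fold, and for the difference 2121 and 1891. Leaving out a library moved the mitochondrial share difference between 0.54 and 0.68 points and the ribosomal between -1.76 and -1.57, and 3 against 4 libraries cannot go below p = 0.057 in the exact permutation test. On library totals rises were 65.6% of calls against 52.3%.

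Named genes changed direction with the GC and length trend removed, with or without the replicate block: mt-Nd1 (-0.27), mt-Co1 (-0.49), Top2a (-0.02), Hif1a (-0.05) and Srf (0.16). Under quantile normalisation Sqstm1 was at 0.02. Eef1a1 was at 0.0 there by construction, as the highest gene of every library, which says nothing of its direction. Counts of members in the 13 lists given in detail moved by more than 1.5 times in 18 cases and by no more than that in 502. Of 126 called named genes, 11 lost the call in at least 1 alternative while keeping direction. Genes filtered before deposit could not be examined.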
